A study of Mus musculus with 12 samples.

Results

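The genes described here encode the protein subunits of the mitochondrial ribosome. They were chosen by symbol, as genes whose mouse name begins with Mrpl or Mrps followed by a digit, pseudogenes left out, with a mean of at least 10 counts over the libraries. Of 24562 genes in the count table, 78 carried such a symbol and 77 met the minimum. Mrpl23 fell outside it with a mean of 8.4 counts, and the lowest member inside it was Mrps36 with a mean of 69.1 counts. All 77 members then passed the filter on low counts and were tested among 12641 genes. By their current protein names, 50 of the members belong to the large subunit and 26 to the small subunit, and Mrps36 stands apart.

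The RNA came from peritoneal macrophages, phagocytes that line and patrol the abdominal cavity, taken from female mice. One set of mice ate chow and another a high fat diet (HFD), and the cells had been exposed to lipopolysaccharide (LPS), a bacterial membrane component that macrophages sense, for 0 h or 24 h. The 12 libraries made 4 groups of 3, each named by diet and hours of LPS. Strain, genotype and age were not given in the sources used here, no group was labelled as kept for 24 h without LPS, and the labels did not tie libraries to animals, so p-values measure the spread between these libraries, which may be technical.

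The mitochondrial ribosome, or mitoribosome, translates the few proteins encoded by mitochondrial DNA, all of them parts of the respiratory chain and ATP synthase. Its RNAs come from mitochondrial DNA, whereas every one of its proteins is encoded in the nucleus, made in the cytosol and imported. Compared with bacterial ribosomes it has lost RNA and gained proteins, so that some subunits have bacterial counterparts and others occur only in mitochondria. In macrophages, LPS is known to shift energy metabolism from respiration toward glycolysis.

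Library totals ranged from 2360244 counts in HFD 0 h replicate 3 to 20688308, with the next lowest at 9135057. In HFD 0 h replicate 3 the median member had 41 counts and the lowest member 4, against a median of 431 in the deepest library. That library also stood alone on the second principal component of all genes (15.6% of the variance), at -82.16, while the other 11 lay at -5.53 or higher. The labels of 4 libraries, all 3 of chow 24 h and replicate 1 of HFD 24 h, carried a tag for sequencing lane 8, and the other 8 carried no lane tag. Within chow the lane tag and LPS cannot be told apart, and within HFD the tag divides the 24 h group. The untagged chow 0 h replicate 2 and HFD 0 h replicate 3 carry the same sample number in their descriptions. Whether the untagged libraries shared a run was not given in the sources used here. Levels are given as CPM, counts relative to the library total. Summed macrophage markers lay between 14107 and 15696 CPM at 0 h and between 9649 and 12317 CPM at 24 h. Large peritoneal macrophage markers lay between 113 and 159 CPM at 0 h and between 331 and 396 CPM at 24 h, while over all libraries B cell markers summed to 4.21 to 22.1 CPM, T and NK cell markers to 3.6 to 11.5, neutrophil markers to 30.1 to 84.2, and mesothelial and stromal markers to 463.7 to 2090.7 CPM. The 5 erythroid markers together stayed at or below 1.27 CPM, and no listed marker in the table was at 0 in every library. Of the 7 macrophage markers, 2 passed the test used below as higher at 24 h and 1 as lower, in each diet. Of the 7 large peritoneal macrophage markers, 2 passed as higher and 0 as lower in each diet. For all tested genes these shares were 13.7% and 12.9% in chow, and 12.7% and 12% in HFD. A sum follows its most abundant genes, so these sums do not show a set moving as a whole. The part of cell composition in the results below was not tested, and fewer cells of a type and less RNA per cell cannot be told apart in bulk RNA.

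Promoter sequence was examined as a description of the members, which are spread over the genome. The 77 genes lay on 17 chromosomes, with 11 on chromosome 11 and none on X, so they do not form a single cluster. A RefSeq promoter table (GRCm38.p6, the assembly behind mm10) held windows of 300 bases, from 250 before to 50 after a transcription start, for 68 members in 74 windows. The binding sequence of NRF1, a factor known for driving nuclear genes of mitochondrial proteins, was searched on both strands as the 10 letters in capitals in the first 2 sequences printed here. It was found in 3 of the 74 windows (4.05%), against 2.01% of the windows of tested genes and 0.971% of all windows. The 3 genes were Mrpl39, Mrpl9 and Mrpl32. Printed first are the 150 bases before the start of Mrpl39 (chr16:84735245-84735394, minus strand), the member with the largest LPS fold change, and of Mrpl32 (chr13:14613038-14613187, minus strand), with the NRF1 match in capitals.

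Mrpl39: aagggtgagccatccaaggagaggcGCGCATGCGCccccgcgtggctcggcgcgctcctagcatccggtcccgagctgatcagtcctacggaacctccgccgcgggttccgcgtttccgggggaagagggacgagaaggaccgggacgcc

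Mrpl32: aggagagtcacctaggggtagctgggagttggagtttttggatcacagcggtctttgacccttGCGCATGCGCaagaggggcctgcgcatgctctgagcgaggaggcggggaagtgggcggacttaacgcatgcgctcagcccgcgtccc

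A match to the ETS family sequence CCGGAAG, which GABP also binds, was the most frequent of those searched. On both strands it was found in 26 member windows (35.1%), against 17.3% of the windows of tested genes. Among the members that rose in both diets with LPS, it was found in Mrps18a and Mrpl21 only, and not every member had a window. The same 150 bases of Mrps18a (chr17:46110854-46111003, plus strand) are shown as an example, with that match in capitals.

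Mrps18a: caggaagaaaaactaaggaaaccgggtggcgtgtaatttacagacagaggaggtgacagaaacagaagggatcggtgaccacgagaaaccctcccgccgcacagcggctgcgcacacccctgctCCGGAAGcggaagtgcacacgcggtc

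The YY1 sequence AAGATGGC was found in 12 member windows (16.2%), against 4.4% of those of tested genes, and 8 of the 12 matches began between 12 and 37 bases after the start. The E-box CACGTG was found in 9.46% of member windows and 9.87% of those of tested genes, and the TATA sequence TATAAA in 6.76% and 7.29%, with both strands searched. The core GCATGC, which lies within the NRF1 sequence, was present in 12.2% of member windows and 9.6% of those of tested genes. The median GC content was 58.5% in member windows and 60.7% in those of tested genes. These matches describe letters in a window and say nothing of binding. Whether they go with the LPS changes of the members was not tested.

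A second shared feature was the neighbourhood of the start sites. In the GENCODE M21 annotation of the same assembly, 33 of the 77 members (42.9%) had the start of another protein-coding gene on the opposite strand within 1000 bases, against 1940 of 11841 tested protein-coding genes (16.4%). In 1 such pair both genes were members: Mrpl46, a large subunit protein, and Mrps11, of the small subunit, start 412 bases apart. Mrpl46 had means of 17.4 CPM (SD 1.91, n = 3) in chow 0 h and 22.3 CPM (SD 1.1) in chow 24 h, and Mrps11 means of 15.4 CPM (SD 0.929) and 15.2 CPM (SD 3.43). Neither of the pair passed the test in any comparison with all 12 libraries. With HFD 0 h replicate 1 left out, Mrpl46 passed as higher at 24 h in HFD (log2 fold change 0.82, edgeR adjusted p = 0.0299).

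Levels were compared between genes as CPM per kilobase of transcript, averaged over the 12 libraries. The median member stood at 13.7 CPM per kb. Mrpl52 (118.3), Mrpl33 (97.6) and Mrps21 (63.4 CPM per kb) were highest, and Mrpl47 (2.5), Mrps35 (2.68) and Mrps5 (2.88 CPM per kb) were lowest. Over the 12 libraries Mrpl52 ranged from 57 to 186.8 and Mrpl33 from 54.6 to 120.9 CPM per kb, so their ranges overlapped. The 3 highest members have annotated transcripts of 405 to 478 bases and the 3 lowest of 3364 to 4481 bases, the quantity by which the level was divided. Exons of 25 members overlap those of another gene in GENCODE, and since the counting was not stated to use strand, reads of such pairs cannot be told apart. Among the members named in the text this holds for Mrpl13 (Mtbp, 27% of its exon bases), Mrps18b (Gm16279, 59.1%), Mrpl47 (Actl6a, 13.4%), Mrpl27 (Eme1, 9.92%), Mrpl21 (Ighmbp2, 8.58%), Mrpl9 (Oaz3, 6.06%), Mrps7 (Gga3, 6.47%), Mrpl12 (Gm16755, 15.2%), Mrpl33 (Gm43809, 22.4%), Mrps18c (Gm43511, 18.5%), Mrps6 (Gm49711, 36.1%) and, by 2 bases, Mrpl58 (Ict1os).

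At 24 h of LPS in chow, part of the mitoribosomal genes stood higher and none passed the test as lower. The smallest adjusted p-values were those of Mrpl39, Mrpl30, Mrps2 and Mrpl45, at 1.63 to 2.2 times the 0 h level. By edgeR's quasi-likelihood test with Benjamini-Hochberg adjustment over all tested genes, 15 of the 77 members rose and 0 fell, while 62 were not called. Among all tested genes, 13.7% rose and 12.9% fell. At an unadjusted p under 0.05 there were 24 members, all higher, against 36.2% of all tested genes in either direction, and DESeq2 and limma-voom also called 0 members lower. The median log2 fold change of the members was 0.25 and 60 of the 77 estimates were above 0, where 50% of all tested genes had an estimate above 0. The groups did not overlap for 30 members that were higher at 24 h and 4 that were lower, against 22.5% and 22.9% of all tested genes.

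Mrpl39 (chr16:84718281-84735244), a large subunit protein found only in mitochondria and related in fold to threonyl-tRNA synthetases, gave 24, 29.5 and 27.8 CPM in chow 0 h and 57.6, 47.6 and 73.2 CPM in chow 24 h. Each 24 h library stood above each 0 h library, and the 24 h values were spread more widely. Its log2 fold change was 1.14 (SE 0.15, fold 2.2, edgeR adjusted p = 2.35e-05).

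Mrpl30 (chr1:37890477-37898338), the counterpart of bacterial L30, gave 26.4, 26.8 and 31.9 CPM in chow 0 h and 49.5, 47.5 and 70.6 CPM in chow 24 h. The groups did not overlap, and chow 24 h replicate 3 was the highest, as for Mrpl39. The log2 fold change was 0.98 (SE 0.18, edgeR adjusted p = 0.000563).

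Mrps2 (chr2:28465951-28471177), the counterpart of bacterial S2 on the back of the small subunit, gave 25, 22.3 and 29.6 CPM in chow 0 h and 39.6, 40.4 and 45.4 CPM in chow 24 h. The 24 h libraries lay close together and clear of those at 0 h. This was a log2 fold change of 0.71 (SE 0.14, edgeR adjusted p = 0.00126).

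Mrpl45 (chr11:97314923-97329920), a mitochondrial protein near the exit tunnel that helps to hold the ribosome at the inner membrane, gave 26, 22.9 and 21 CPM in chow 0 h and 37.5, 41.4 and 37.7 CPM in chow 24 h. Its groups were narrow and did not overlap. Its log2 fold change was 0.74 (SE 0.15, edgeR adjusted p = 0.00137).

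Of the other 11 members that rose in chow, 8 belong to the large subunit. Mrpl15, Mrpl21, Mrpl9 and Mrpl35 are counterparts of bacterial proteins of the same number, with log2 fold changes of 0.71 (SE 0.16), 0.88 (SE 0.22), 0.65 (SE 0.17) and 0.69 (SE 0.19). Mrps18a, named as a small subunit protein but now placed in the large subunit, rose by 0.59 (SE 0.15), and Mrpl55, a large subunit protein with a bacterial counterpart, by 0.84 (SE 0.24). Mrpl55 gave 18.8, 18.7 and 33.7 CPM in chow 24 h. Without the last of these libraries, replicate 3, its call was lost (log2 fold change 0.50, edgeR adjusted p = 0.104). Mrpl47 rose by 0.99 (SE 0.32) from the low level of 5.75 CPM, and Mrpl28 by 0.41 (SE 0.14). On the small subunit Mrps28, Mrps18b and Mrps7 rose by 0.59 (SE 0.18), 0.68 (SE 0.21) and 0.42 (SE 0.15). Their edgeR adjusted p-values ran from 0.00331 for Mrpl15 to 0.0496 for Mrps7.

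In HFD a list of similar size stood higher at 24 h of LPS, with 1 member falling. By the same test 18 of the 77 members rose and 1, Mrpl41, fell, against 12.7% and 12% of all tested genes. At an unadjusted p under 0.05, 21 members were higher and 3 lower, against 35.1% of all tested genes in either direction. The median member log2 fold change was 0.22, and 61 of the 77 estimates were above 0, where 49.8% of all tested genes were. The groups did not overlap for 23 members that were higher at 24 h and for 1 that was lower, against 18.2% and 17.2% of all tested genes.

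Mrpl39 again had the largest fold change. It gave 22.8, 23.8 and 24.7 CPM in HFD 0 h and 54.6, 54.3 and 54.2 CPM in HFD 24 h, so that both groups were tight. The log2 fold change was 1.2 (SE 0.16, fold 2.3, edgeR adjusted p = 2.31e-05).

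Mrps2 gave 22.1, 19.1 and 20.7 CPM in HFD 0 h and 33.1, 34.3 and 37.5 CPM in HFD 24 h. The groups did not overlap. Its log2 fold change was 0.76 (SE 0.15, edgeR adjusted p = 0.00106).

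Mrpl45 gave 22.6, 24.2 and 32.4 CPM in HFD 0 h and 42.2, 38.8 and 36.7 CPM in HFD 24 h. The highest value at 0 h came from replicate 3, the shallow library, and still lay below every 24 h library. This gave a log2 fold change of 0.61 (SE 0.16, edgeR adjusted p = 0.00772).

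Mrpl37, a mitochondrial protein of the large subunit, gave 25.9, 23.5 and 22.9 CPM in HFD 0 h and 41.1, 32.8 and 33.2 CPM in HFD 24 h. The tagged library, replicate 1, was the highest at 24 h. The log2 fold change was 0.56 (SE 0.15, edgeR adjusted p = 0.012).

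Mrpl41 (chr2:24972470-24975098), a mitochondrial protein of the large subunit, gave 23.6, 33.1 and 32.8 CPM in HFD 0 h and 22.1, 18.7 and 15.9 CPM in HFD 24 h. It was lower at 24 h in each library than in any at 0 h, though HFD 0 h replicate 1 lay close to the highest 24 h value. Its log2 fold change was -0.65 (SE 0.18, edgeR adjusted p = 0.0131), and the call was lost without HFD 0 h replicate 2 (adjusted p = 0.0733) and without HFD 24 h replicate 3 (0.0874). In chow Mrpl41 gave 22.2, 22.4 and 24.9 CPM at 0 h and 22, 19.8 and 25.4 CPM at 24 h, which overlap.

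The other members that rose in HFD included the counterparts of bacterial L13, L32 and L27. Mrpl13 had a log2 fold change of 0.96 (SE 0.27), Mrpl32 of 0.87 (SE 0.26) and Mrpl27 of 0.83 (SE 0.27). Mrpl30, Mrpl35, Mrps18a, Mrps28, Mrpl21, Mrpl9 and Mrpl15, which rose in chow too, had log2 fold changes in HFD between 0.49 and 0.7. The mitochondrial large subunit proteins Mrpl42, Mrpl40 and Mrpl52 rose by 0.63, 0.55 and 0.63, and Mrps10, the counterpart of bacterial S10, by 0.61. In this group edgeR adjusted p-values ran from 0.0134 for Mrpl13 to 0.0426 for Mrpl15. In Mrpl32 the lowest value of all, 6.29 CPM, came from the shallow HFD 0 h replicate 3, against 17.5 and 18.5 CPM in the other 2 libraries of its group.

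The calls of both diets shared 10 members, namely Mrpl9, Mrpl15, Mrpl21, Mrpl30, Mrpl35, Mrpl39, Mrpl45, Mrps2, Mrps18a and Mrps28. Not all of these calls were stable: in HFD, Mrpl15 kept its call under 9 of 22 alternatives and Mrpl9 and Mrpl21 under 14 each. Outside the 10, Mrps7 kept its call in chow under 10 alternatives, Mrpl28 in chow under 12 and Mrps10 in HFD under 12. Also in HFD, Mrpl40 and Mrpl52 kept theirs under 14, and Mrpl27 and Mrpl42 under 15. In chow, Mrps28, which is among the 10, and Mrps18b kept theirs under 17, and Mrpl47 and Mrpl55 under 18. The 10 are 66.7% of the chow list and 55.6% of the HFD list, where among all genes that rose the shares were 76.7% and 82.7%. A further 5 members were called higher in chow alone and 8 in HFD alone, and 53 members were called in neither diet. The estimates were above 0 in both diets for 55 members, below 0 in both for 11 and of opposite sign for 11.

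**Figure D1:**
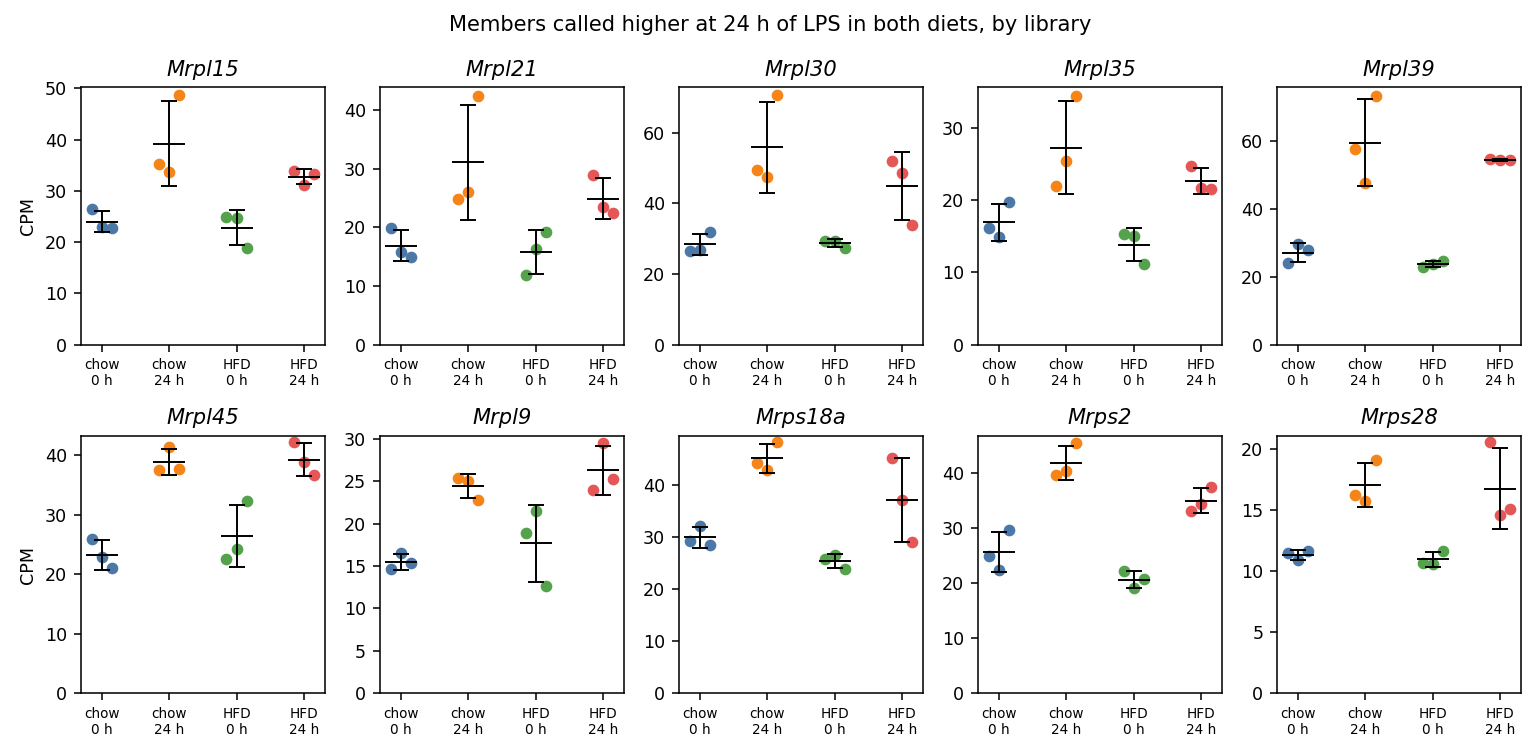
Expression (CPM, linear axes from 0) of the 10 members called higher with LPS in both diets. Points are libraries, and bars give the mean and SD of 3 libraries per group; Mrpl39 lies between 22.8 and 29.5 CPM at 0 h and between 47.6 and 73.2 CPM at 24 h.

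**Figure D2:**
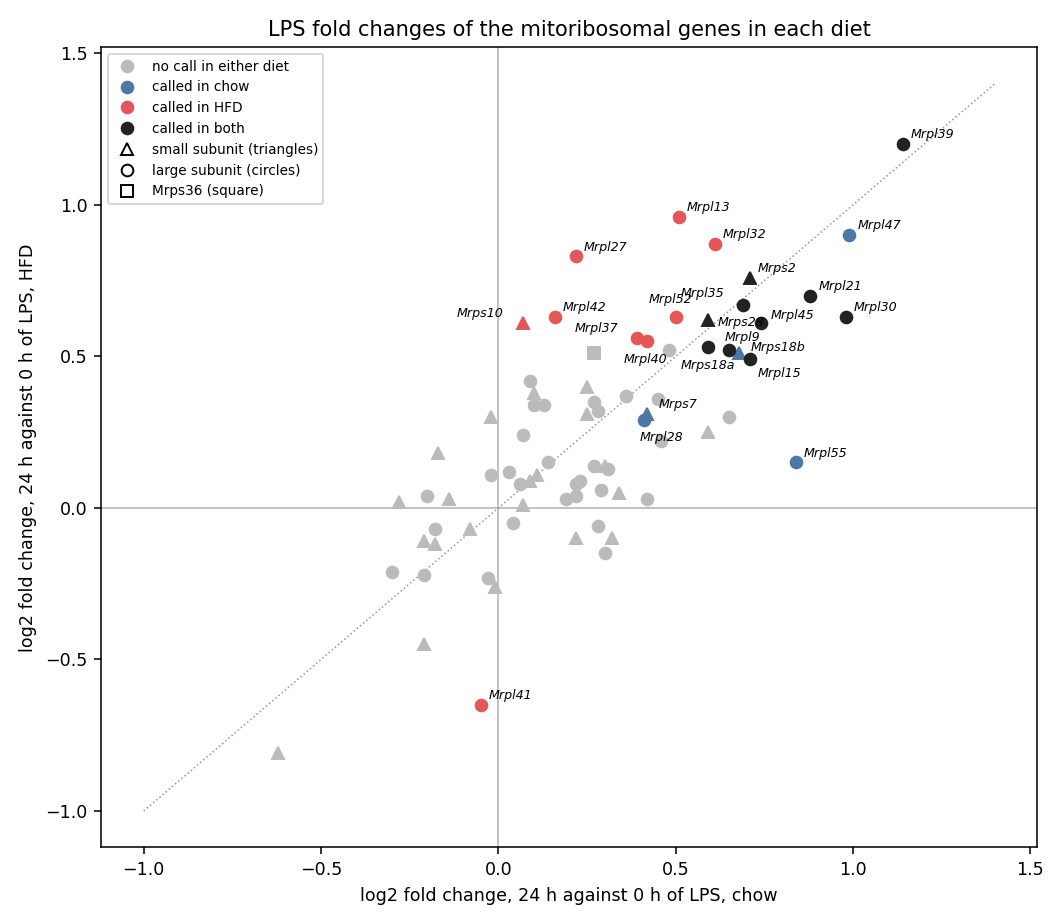
Log2 fold change at 24 h against 0 h of LPS in chow (horizontal) and HFD (vertical) for the 77 members, with named points for those that passed the test in at least 1 diet and a dotted line of equality. Mrpl39 lies at 1.14 and 1.2, Mrpl41 at -0.05 and -0.65, and 55 members lie above 0 on both axes.

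The lowest point of that plot, Mrps6, was singled out after its value was seen. Its log2 fold change was -0.62 (SE 0.36) in chow and -0.81 (SE 0.37) in HFD, and it did not pass edgeR's test in either (adjusted p = 0.236 and 0.132). In HFD it gave 11.9, 12.6 and 1.8 CPM at 0 h, the last from 4 counts in the shallow library, and 7.36, 4.26 and 5.13 CPM at 24 h. Without that library Mrps6 passed in HFD (log2 fold change -1.14, adjusted p = 0.00371), and in chow it passed when only the groups compared were fitted (-0.63, adjusted p = 0.0454). Its exons overlap those of Slc5a3 and Gm49711 on the same strand.

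Counted by subunit, the difference between the subunits was not tested. In chow 11 of 50 large subunit members rose against 4 of 26 of the small subunit, that is 22% and 15.4% beside 13.7% of all tested genes, with median log2 fold changes of 0.28 and 0.1. In HFD 15 of 50 rose and 1 fell in the large subunit, while 3 of 26 rose in the small one, that is 30% and 11.5% rising beside 12.7% of all tested genes, with medians of 0.3 and 0.1. Of the 45 members with a bacterial counterpart 11 rose in chow and 11 in HFD, and of the 31 without one 4 rose in chow and 7 in HFD. The shares are 24.4% in each diet for the first and 12.9% and 22.6% for the second, so those of the small subunit and of the members without a counterpart in chow lie near the share of all tested genes.

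Some members were described for their roles, whatever their values. Mrpl12, of the stalk that recruits translation factors, had 39.9 CPM (SD 1.71, n = 3) in chow 0 h and 53.4 CPM (SD 4.39) in chow 24 h (log2 fold change 0.42, edgeR adjusted p = 0.106). It passed in chow with only the groups compared (adjusted p = 0.0136) and without HFD 0 h replicate 3 (0.0499). In HFD its means were 45.7 CPM (SD 12.4) and 45.5 CPM (SD 10.7). Mrps12, of the decoding centre, had log2 fold changes of 0.22 (SE 0.26) in chow and -0.1 (SE 0.28) in HFD. Mrpl58, a peptidyl-tRNA hydrolase built into the large subunit that can free stalled ribosomes, had 0.28 (SE 0.17) and 0.32 (SE 0.17). Neither of these genes passed the test. Of the 3 relatives of bacterial S18, Mrps18a rose in both diets and Mrps18b in chow. In HFD Mrps18b had a log2 fold change of 0.51 (SE 0.22, edgeR adjusted p = 0.103). It passed there without HFD 0 h replicate 1 (0.78, edgeR adjusted p = 0.035), while Mrps18a kept its HFD call under 17 of 22 alternatives. Mrps18c had log2 fold changes of -0.28 (SE 0.22) and 0.02 (SE 0.23) and no call. Differences between these 3 genes were not tested. Mrps36, now regarded as a subunit of the 2-oxoglutarate dehydrogenase complex and not of the ribosome, had 0.27 (SE 0.29) and 0.51 (SE 0.31) and no call.

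Summed over the 77 members, the level was 1629.2, 1621.1 and 1710.9 CPM in chow 0 h and 1940.1, 1925.1 and 2165.4 CPM in chow 24 h. In HFD 0 h it was 1626.6, 1610.2 and 1467.5 CPM, and in HFD 24 h 2078, 1879.4 and 1659.8 CPM. Each 24 h library thus lay above each 0 h library of its diet, though only narrowly in HFD 24 h replicate 3. Summed without the 10 members called in both diets, HFD 24 h replicate 3 (1350.9 CPM) lay below HFD 0 h replicates 1 and 2 (1422.2 and 1399.3 CPM). The group means were 1653.8 CPM (SD 49.7, n = 3), 2010.2 (SD 134.6), 1568.1 (SD 87.5) and 1872.4 CPM (SD 209.2) in the same order, and the members held 0.138% to 0.222% of a library's counts. The 2 subunits did not move alike in every library. In HFD 24 h replicate 3 the large subunit members summed to 1205 CPM, above all HFD 0 h libraries (985.5 to 1146.6), and the small subunit members to 449.8 CPM, below all of them (474.5 to 477).

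**Figure D3:**
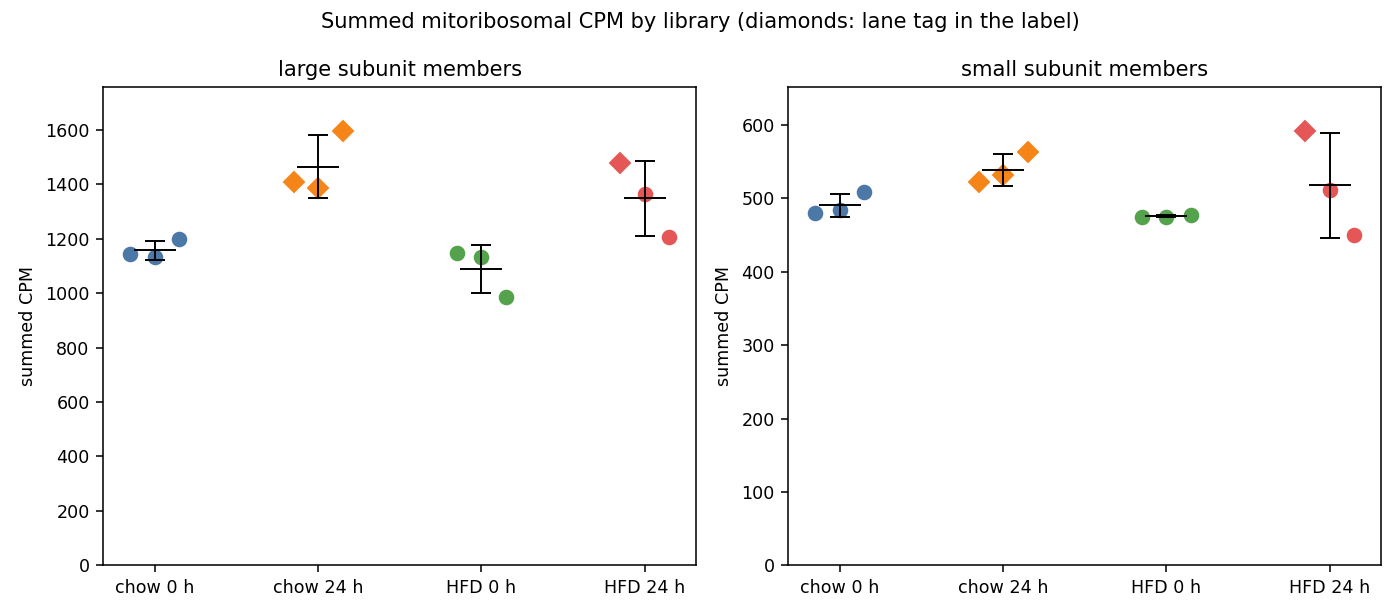
Summed CPM of the 50 large subunit members (left) and the 26 small subunit members (right) by library, with diamonds for libraries whose label carries the lane tag and bars for the mean and SD of 3 libraries. In HFD 24 h the tagged library is the highest in both panels, at 1478.1 and 592.1 CPM.

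The lane tag moved with these values. In HFD 24 h the tagged replicate 1 had the highest sum, and 65 of the 77 members were above their mean of 12 libraries in it, against 53 and 34 in the untagged replicates 2 and 3. Compared within libraries without the tag, that is with HFD 24 h replicate 1 left out, 9 members rose with LPS in HFD and 2 fell, with a median log2 fold change of 0.15. The 9 were all among the 18, and were Mrpl9, Mrpl13, Mrpl27, Mrpl32, Mrpl37, Mrpl39, Mrpl45, Mrps2 and Mrps10. A fit with the tag as a covariate takes the tag's effect in chow from HFD 24 h alone, from 1 tagged library against 2 untagged ones, so its chow values rest on that library. Under it 1 member rose in chow (Mrpl39, edgeR adjusted p = 0.0148) and 1 fell (Mrps21, log2 fold change -0.87), with a median of 0. Mrps2 then stood at an edgeR adjusted p of 0.0508 in chow. In HFD 8 rose and 2 fell under that fit, with a median of 0.13. Mrpl39 kept its call in both diets under all 22 alternatives tried, and Mrps2 in HFD under all 22 and in chow under 21. Leaving out a single library otherwise took the count of rising members in chow to 9 at the lowest, without chow 0 h replicate 3. In HFD it took the count to 9 without HFD 24 h replicate 2, to 10 without HFD 0 h replicate 1 and to 11 without HFD 0 h replicate 2. Without the shallow HFD 0 h replicate 3, 15 members rose in HFD, 12 of them among the 18, and 2 fell. Mrpl9, Mrpl15, Mrpl27, Mrpl40, Mrpl42 and Mrpl52 lost their HFD calls there (edgeR adjusted p from 0.072 to 0.117).

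No member passed the test for diet at 0 h. In edgeR 0 of 77 members differed between HFD and chow, where 0.087% of all tested genes did, and DESeq2 and limma-voom also called 0 members. At an unadjusted p under 0.05 there were 3 members, all lower in HFD, where 6.15% of all tested genes had such a p. The median member log2 fold change was -0.06, and 30 of the 77 estimates were above 0, against 50.5% of all tested genes. Mrpl42 gave 20.4, 23.2 and 29.4 CPM in chow 0 h and 20.8, 15.1 and 12.1 CPM in HFD 0 h, which overlap (log2 fold change -0.55, SE 0.21, edgeR adjusted p = 0.668). Mrpl27 gave 10.8, 9.24 and 9.73 CPM in chow 0 h and 6.97, 6.23 and 4.5 CPM in HFD 0 h. These groups did not overlap, and the lowest value came from the shallow library (log2 fold change -0.68, SE 0.27, edgeR adjusted p = 0.703). Mrpl40 had a log2 fold change of -0.4 (SE 0.19) and Mrps2 of -0.31 (SE 0.15), with edgeR adjusted p-values of 0.801 and 0.811. For 9 members HFD lay below chow without overlap and for 1 above, against 6.35% and 5.87% of all tested genes.

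After 24 h of LPS the diets again gave 0 called members in edgeR, where 0.00791% of tested genes passed, and 0 in DESeq2 and limma-voom. At an unadjusted p under 0.05 there was 1 member, where 7.86% of all tested genes had such a p. Of the 77 estimates, 54 were below 0, that is lower in HFD, with a median of -0.09, while 50.4% of all tested genes had an estimate above 0. With the lane tag as a covariate that median was 0.05. Leaving out single libraries moved it too. It was -0.15 without chow 24 h replicate 1 (53 estimates below 0). Without chow 24 h replicate 3 it was -0.03 (44 below 0), and without HFD 24 h replicate 3 also -0.03 (47 below 0). Mrpl55 gave 18.8, 18.7 and 33.7 CPM in chow 24 h and 19.8, 15.3 and 13.4 CPM in HFD 24 h, with 1 chow library far above the rest (log2 fold change -0.56, SE 0.23, edgeR adjusted p = 0.605). Mrpl57 had a log2 fold change of -0.38 (SE 0.19), Mrps18a of -0.29 (SE 0.15) and Mrps2 of -0.26 (SE 0.14), with edgeR adjusted p-values from 0.637 to 0.689. For 2 members HFD lay below chow without overlap and for 1 above, against 5.98% and 6.28% of all tested genes. For Mrps2, 1 of the 2, each HFD 24 h library lay below each chow 24 h library, as it did at 0 h.

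**Figure D4:**
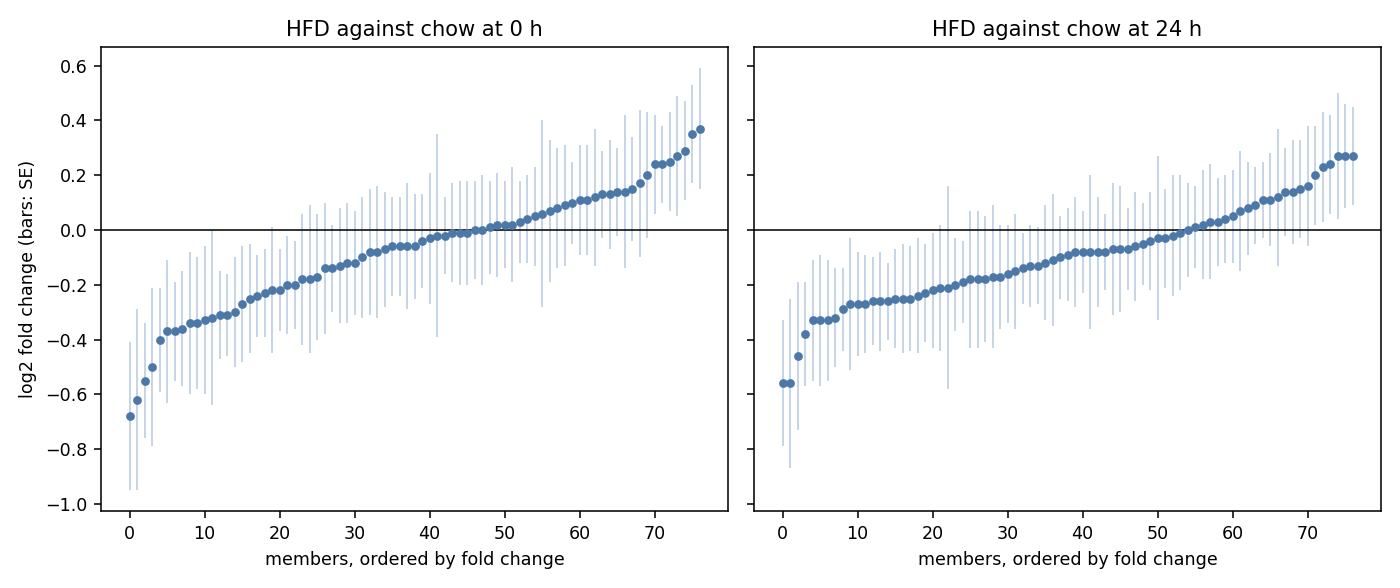
Log2 fold change of HFD against chow for the 77 members at 0 h (left) and 24 h (right), each ordered from lowest to highest, with bars for the SE. No member passed the test at either time, and the medians were -0.06 and -0.09.

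Whether the change from 0 h to 24 h of LPS varied between the 2 diets was tested with the interaction. This is the LPS log2 fold change in HFD minus that in chow. EdgeR called 0 members and 0 of all tested genes (0%), and DESeq2 and limma-voom called 0 members. At an unadjusted p under 0.05 there was 1 member, Mrpl41, with a difference of -0.6 (SE 0.25, unadjusted p = 0.0288, edgeR adjusted p = 1), where 2.35% of all tested genes had such a p. Mrpl55 differed by -0.69 (SE 0.34), Mrps10 by 0.54 (SE 0.29) and Mrpl27 by 0.61 (SE 0.36), none past the test. The estimate was above 0 for 38 members, against 51.4% of all tested genes. The 13 members called higher in 1 diet alone are therefore not shown to differ between the diets.

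The other genes of mitochondrial translation were described from lists, whose counts stand beside 13.7% rising and 12.9% falling of all tested genes in chow, and 12.7% and 12% in HFD. Among 5 mitoribosomal proteins with other symbols, Dap3, a small subunit GTPase, rose in both diets. It gave 22.3, 16.6 and 18.7 CPM in chow 0 h and 31.1, 31.9 and 40.5 CPM in chow 24 h (log2 fold change 0.84, SE 0.16, edgeR adjusted p = 0.000712). In HFD its log2 fold change was 0.67 (SE 0.17, adjusted p = 0.0065). Ptcd3, Chchd1, Gadd45gip1 and Aurkaip1 did not pass in either diet.

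Of 13 translation factors, 0 rose and 1 fell in chow, and 1 rose and 1 fell in HFD, with medians of -0.08 and -0.05. Gfm1, the elongation factor that moves the ribosome along the mRNA, rose in HFD from 36.9 to 54.5 CPM (log2 fold change 0.55, SE 0.14, edgeR adjusted p = 0.00633), and Mtif3, an initiation factor, fell by 0.45 on the log2 scale (SE 0.16, adjusted p = 0.0487). Guf1, a GTPase related to bacterial LepA, fell by 0.88 on the log2 scale in chow (SE 0.24, edgeR adjusted p = 0.0127). Guf1 followed the lane tag: it stood at 6.41 to 8.44 CPM in the 4 tagged libraries and at 11.5 CPM or more in the others, the untagged HFD 24 h libraries (13.4 and 12.1 CPM) included. With the tag as a covariate, estimated from that 1 tagged HFD library, its log2 fold change in chow was 0.11.

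Of 25 genes for assembly and rRNA modification, 1 rose in chow, Eral1, a chaperone of the small subunit rRNA (log2 fold change 0.43, SE 0.15, edgeR adjusted p = 0.0427), and 0 were called in HFD. Of 20 mitochondrial aminoacyl-tRNA synthetases and amidotransferase subunits, 0 rose in either diet. Lars2, which charges leucine tRNA, fell in both (log2 fold changes -1.82, SE 0.46, and -2.05, SE 0.46), and Wars2, for tryptophan, fell by 0.75 on the log2 scale in chow. Lars2 was listed at 1239.5 to 1899.4 CPM in chow 0 h, about as much as all 77 members together, and varied from 699.6 to 2338.7 CPM within HFD 0 h. Its level was out of line with its list, whose other genes stayed at or below 83.8 CPM in every library. Whether the reads of this row come from Lars2 mRNA was not tested. Of 14 tested genes for mitochondrial transcription and RNA handling, Pnpt1, the polynucleotide phosphorylase, rose in both diets, by 1.11 (SE 0.22) and 1.12 (SE 0.23), and the other 13 were not called.

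Among 9 regulators of mitochondrial biogenesis, the GABP subunit gene Gabpb1 rose in chow (0.68, SE 0.2, edgeR adjusted p = 0.0182) and the coactivator gene Ppargc1a fell by 1.65 on the log2 scale (SE 0.47, adjusted p = 0.0143), from 3.06 to 0.954 CPM. In HFD the 1 called gene was Myc, which fell by 0.95 (SE 0.28, adjusted p = 0.019). Nrf1 did not pass in either diet. All 4 LPS marker genes, Acod1, Nos2, Tnf and Il1b, rose in both diets, Tnf from 23.8 to 228.8 CPM in chow and from 21.4 to 185.3 CPM in HFD.

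The genes whose log2 CPM followed Mrpl39 most closely over the 12 libraries were not mitoribosomal. They were Slamf1, a surface receptor of immune cells (Pearson r = 0.989), Ifi213, an interferon-inducible gene (0.982), Hrh2, a histamine receptor (0.982), Wfdc21 (0.98) and Tent4a (0.98). All 12 libraries carry the same LPS contrast, so these values describe that contrast and no test is given. The closest member was Mrps2 (r = 0.921), at rank 578 among the tested genes, followed by Mrps28 (0.92) and Mrpl30 (0.907).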

How the data were processed

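Per the labels' protocols, extraction used a Qiagen RNeasy mini kit and library preparation a NuGen Ovation Universal kit. The authors used CASAVA 1.8.2 and STAR 2.5.2b with mm10, per the submitters' processing notes. No source used here names the counter or its use of strand. The deposited table holds raw counts for 35745 RefSeq identifiers in 12 columns, with no normalization. Symbols came from a RefSeq table (35440 identifiers) and a GENCODE table (188), and 117 identifiers, with 2.33% to 12.0% of a library's counts, had none. Each gene was represented by its row with the highest mean, which mattered for the 14 members with several rows.

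CPM used library totals scaled by TMM. After filterByExpr, edgeR 4.0.16 in R 4.3.3 fitted 4 group means over all 12 libraries (glmQLFit, robust, and glmQLFTest), with Benjamini-Hochberg adjustment over 12641 genes at 0.05, and "called", "rose" and "fell" mean that a gene passed. The SE is the absolute log2 fold change over the square root of F. Replicate pairs differed by more than counting noise (chi-square over degrees of freedom 6.24 to 74), so each library counted once. The scripts were tested on simulated data. Alternatives were other size factors and filters, DESeq2 1.42.0, limma-voom (limma 3.58.1), only the groups compared, a replicate block, the lane tag, sums over RefSeq rows and each library left out.

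The members, gene lists and tests were chosen with earlier results of these data known. For each comparison the text names up to 8 members per direction with the smallest adjusted p, or the 4 smallest where fewer than 4 passed, members with set roles, the 3 highest and 3 lowest per length, and up to 4 genes per other list. Mrps6 and the remaining called members were named after their values were seen.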

Additional observations from a re-analysis of the deposited data

How the results depend on the processing

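Under the 22 alternatives the count of members rising with LPS in chow (15) was 24 when only the groups compared were fitted and 1 with the lane tag as a covariate, and the count falling (0) was 1 in each of these. Leaving out single libraries gave 9 to 21 rising and 0 falling. In HFD (18 rising, 1 falling) there were 10 rising with limma-voom, 9 with only the groups compared, and 8 rising and 2 falling with the lane tag. Leaving out single libraries gave 9 to 18 rising and 0 to 2 falling. The log2 fold change of Guf1 in chow turned from -0.88 to 0.11 with the lane tag, whose effect in chow comes from 1 tagged HFD library, and no other called value among the members and lists changed sign. The cause of these differences was not tested, except that the fit of only the groups compared uses fewer libraries. Members called for diet stayed at 0 under every alternative run, and for the interaction under every one but only the groups compared, which it was not fitted with. DESeq2 called 66 genes of all tested for diet at 0 h, and the fit without a filter 23, against 11. For diet at 24 h they called 41 and 10 genes, against 1. For the interaction they called 9 and 3, against 0. Limma-voom called 11 for diet at 24 h, and only the groups compared and the lane tag 0 each. In chow the lane tag gave 874 genes higher and 635 lower with LPS, against 1729 and 1628. Leaving out single libraries gave 7 to 25 genes for diet at 0 h, 0 to 4 at 24 h and 0 to 3 for the interaction. Upper-quartile size factors gave 1499 genes higher and 1862 lower in chow and 1392 and 1842 in HFD, against 1729 and 1628, and 1605 and 1511. They gave 13 and 12 members rising.

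With the replicate block 20 members rose and 0 fell in chow, 14 of them among the 15, and 18 rose and 1 fell in HFD. Over all genes the block called 18 for diet at 0 h, where it joined libraries by replicate order alone, and 4 for the interaction. The same label numbers recurred at 0 h and 24 h within each diet. Correlations of deviations between 0 h and 24 h libraries with the same number lay between 0.0293 and 0.346, not all above 0.1. Those with different numbers lay between -0.307 and 0.109. Each 0 h library except HFD 0 h replicate 3 correlated best with the 24 h library of its own number. From the 24 h side not every library did so. Between diets, libraries of the same replicate order gave -0.139 to 0.213. Whether 0 h and 24 h libraries of a number share a mouse was not tested, and the main fit did not pair them. HFD 0 h replicate 3, where the lowest member had 4 counts, limits what could be detected for the less abundant members.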
